A study of Mus musculus with 8 samples.

Results

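Promoter peaks were taken here as autosomal ATAC-seq peaks whose summit, the position of highest signal, lay within 1 kb of an annotated transcription start site (TSS) of a protein-coding gene. Of the 434365 peaks in 3 deposited peak lists, 61931 met this rule, namely 21111 of 152984 in the wild-type (WT) list, 17614 of 106974 in the heterozygous (het) list and 23206 of 174407 in the mutant list. The annotation held 90310 distinct TSSs of 20807 autosomal protein-coding genes on mm10 (GRCm38). A gene is called open in a list if it had at least 1 promoter peak there, and closed if it had none. Closed thus means that no summit was called within 1 kb of its TSSs at this depth. In WT, 136 of 6078 closed genes had part of a peak within 1 kb of a TSS.

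Accessible DNA was mapped by ATAC-seq, an assay that tags open chromatin by cutting it with the Tn5 transposase, in granule neuron progenitors (GNPs) isolated from mouse cerebella at postnatal day 7, to ask how loss of the chromatin remodeller Chd7 alters accessibility. The 3 WT libraries came from Chd7 f/f mice, the 3 mutant libraries from Atoh1-Cre::Chd7 f/f mice and the 2 het libraries from Atoh1-Cre::Chd7 f/+ mice, with C56Bl6/J given as the strain of all groups in the labels and C57BL/6N in the study's methods. The Cre was driven by Atoh1, which is active in the granule lineage, and per the study Chd7 protein remained in the posterior lobe, which it puts down, as probable, to weaker recombination there. The study describes the WT and mutant replicates as technical, and each list was called on the pooled libraries of its group, so no value below has a replicate error, no p-value is given, and confidence intervals cover counting error alone. The lists rest on 50394313 tags in WT, 51030229 in mutant and 30923002 in het. The het list was called from another alignment and with a longer tag extension, so its tags are printed as a description and its heights are ranked only against other het peaks, as percentiles within the list, and differences of het in presence cannot be told apart from these differences in processing and depth.

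A promoter is the stretch around a TSS at which RNA polymerase II and general transcription factors assemble. Active promoters are kept free of a nucleosome just upstream of the TSS, where Tn5 can cut. Many promoters of genes used in most cells lie in CpG islands, stretches that keep their CG dinucleotides and are usually unmethylated and accessible, whereas many promoters of genes used in a single tissue hold few CGs and open where that tissue needs them. Chd7 is an ATP-dependent remodeller that moves nucleosomes and is known to bind distal enhancers as well as promoters.

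The 200 bases upstream of a TSS are shown for 7 promoters named in the results, read from the GRCm38 genome with CG dinucleotides in capitals. They are the master regulator of the granule lineage (Atoh1, chr6:64728925-64729124, plus strand), the ribosomal protein gene Rpl3 (chr15:80083354-80083553, minus strand) and its muscle paralog Rpl3l (chr17:24727620-24727819, plus strand), the liver apolipoprotein gene Apoa1 (chr9:46228380-46228579, plus strand), Hjurp, which loads the centromeric histone and had the tallest promoter peak outside predicted genes (chr1:88277634-88277833, minus strand), and the genes Ezr (chr17:6782785-6782984, minus strand) and Psmc1 (chr12:100110015-100110214, plus strand). Ezr and Psmc1 were picked from the ends of the ratios of mutant to WT height, which have no replicate error. Rpl3l and Apoa1 were closed in the 3 lists and the others open in the 3.
Atoh1: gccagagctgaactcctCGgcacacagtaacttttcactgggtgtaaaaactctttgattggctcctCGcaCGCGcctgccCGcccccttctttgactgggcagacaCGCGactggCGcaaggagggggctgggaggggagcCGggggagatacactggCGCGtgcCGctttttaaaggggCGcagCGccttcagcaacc
Rpl3: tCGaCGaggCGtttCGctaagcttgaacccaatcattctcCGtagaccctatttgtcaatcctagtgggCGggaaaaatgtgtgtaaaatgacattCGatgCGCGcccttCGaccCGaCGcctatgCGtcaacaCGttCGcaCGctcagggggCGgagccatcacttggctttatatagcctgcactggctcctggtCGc
Rpl3l: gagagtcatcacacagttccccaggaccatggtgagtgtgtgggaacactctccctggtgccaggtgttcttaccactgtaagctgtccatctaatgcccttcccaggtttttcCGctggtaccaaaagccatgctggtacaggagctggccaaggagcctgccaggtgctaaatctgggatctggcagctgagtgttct
Apoa1: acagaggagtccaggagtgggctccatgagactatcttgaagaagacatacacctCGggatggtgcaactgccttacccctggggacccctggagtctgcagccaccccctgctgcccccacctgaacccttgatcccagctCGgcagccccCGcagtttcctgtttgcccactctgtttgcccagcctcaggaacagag
Hjurp: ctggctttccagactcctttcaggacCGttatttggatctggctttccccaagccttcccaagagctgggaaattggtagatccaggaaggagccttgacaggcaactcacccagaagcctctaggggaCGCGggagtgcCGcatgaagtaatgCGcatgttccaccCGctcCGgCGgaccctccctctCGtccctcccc
Ezr: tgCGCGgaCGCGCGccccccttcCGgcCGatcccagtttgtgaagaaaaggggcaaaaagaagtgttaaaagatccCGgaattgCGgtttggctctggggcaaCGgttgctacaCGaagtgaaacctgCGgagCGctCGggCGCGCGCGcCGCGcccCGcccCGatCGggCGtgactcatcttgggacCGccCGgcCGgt
Psmc1: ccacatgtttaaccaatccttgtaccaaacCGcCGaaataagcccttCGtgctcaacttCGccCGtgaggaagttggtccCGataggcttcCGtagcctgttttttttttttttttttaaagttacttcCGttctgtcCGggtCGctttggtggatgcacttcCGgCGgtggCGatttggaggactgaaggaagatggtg
These stretches held 14 CGs in Atoh1, 18 in Rpl3, 9 in Hjurp, 27 in Ezr and 13 in Psmc1, against 1 in Rpl3l and 3 in Apoa1. GC content did not follow that order, at 54.5% in both Rpl3 and Rpl3l and 60.5% in Apoa1.

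Promoter peaks were a small part of each list and most of its tallest peaks. They made up 14.1% of autosomal peaks in WT (21111 of 149637, Wilson 95% CI 13.9 to 14.3%), 16.9% in het (17614 of 104396) and 13.6% in mutant (23206 of 170362). Height was read as the pileup, the number of extended tags over the summit, not scaled to depth. The median promoter peak was 36 tags high and 557 bp wide in WT, against 15 tags and 195 bp for the other peaks of that list. In mutant these medians were 34 tags and 473 bp against 15 tags and 184 bp, and in het 56 tags and 761 bp against 21 tags and 347 bp. Promoters therefore covered 12.8 Mb in WT, 13.7 Mb in het and 13.0 Mb in mutant, which was 27.6%, 27.9% and 26.3% of all covered autosomal length.

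The share of promoter peaks grew with height. In WT it was 2.58% in the lowest decile of peaks by height and 53.8% in the tallest, and the tallest decile held 52.3% in mutant and 61.8% in het. Among the 1000 tallest peaks of a list, promoters made up 86.2% in WT, 88.7% in het and 88.7% in mutant. Among peaks of at least 1000 bp, they made up 82.3% of 4795 in WT, 75.4% of 6628 in het and 83.9% of 4390 in mutant. Height had an upper limit, since the peak caller kept 1 tag per position and strand, which allows at most 180 tags in WT, 176 in mutant and 400 in het. Of the WT promoter peaks, 830 (3.93%) reached at least 50% of that limit, against 1342 (5.78%) in mutant and 39 (0.221%) in het.

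Summits gathered just upstream of the TSS. The median position was -17 bp in WT, -22 bp in het and -17 bp in mutant, and 51.4%, 58.7% and 48.7% of promoter summits lay within 100 bp of the nearest TSS. Upstream positions held 58.8% of promoter summits in WT, 62.5% in het and 58.1% in mutant. These shares were higher in the tallest decile of each list, at 72.9%, 74.9% and 72.3%. At the edge of the 1 kb window the peaks were of ordinary height, with a median of 21 tags for WT summits 901 to 1000 bp from a TSS and 21 tags for those 1001 to 1100 bp away.

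**Figure D1:**
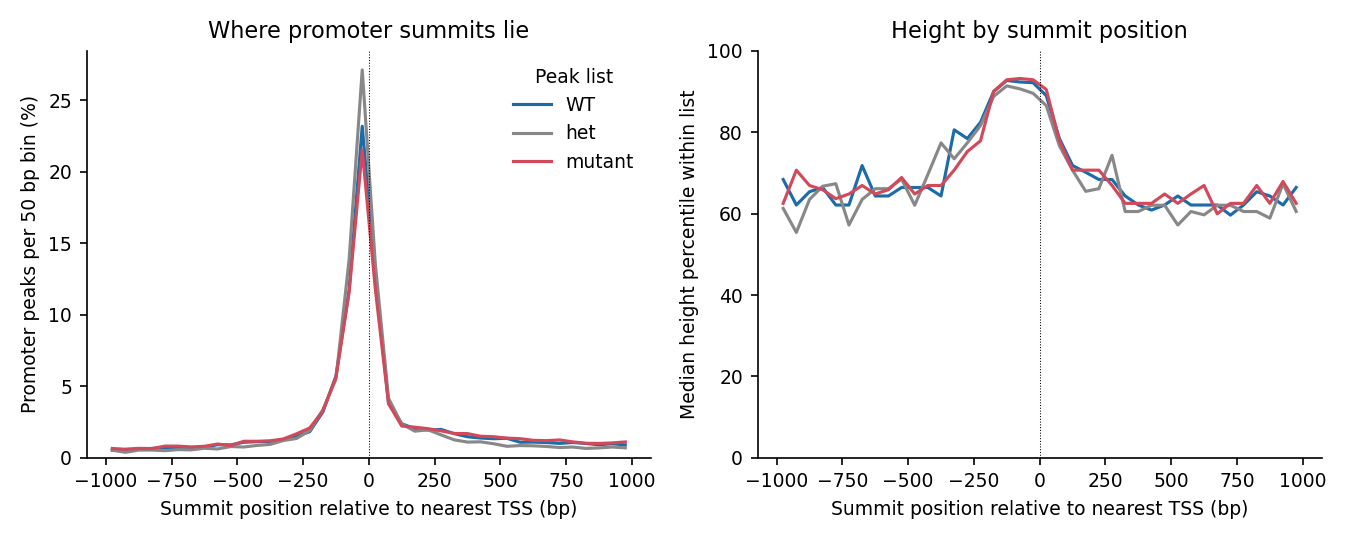
Position of promoter summits relative to the nearest TSS in the WT, het and mutant lists, as the percentage of that list's promoter peaks per 50 bp bin (left) and as the median height percentile of those peaks within their list (right); negative positions are upstream. The bin from -50 to 0 bp held 23.2% of WT, 27.1% of het and 21.5% of mutant promoter peaks, with median height percentiles of 92.1, 89.5 and 92.9.

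Promoters near more than 1 gene had taller and wider peaks. In WT, 1606 promoter peaks (7.61%) lay within 1 kb of TSSs of 2 or more genes, with a median of 57 tags and 852.5 bp, against 34 tags and 528 bp for peaks near 1 gene. In mutant the medians were 56 and 33 tags, and in het 84 and 53 tags. For 2321 genes, the gene 5′ end lay within 1 kb of that of another protein-coding gene on the opposite strand, in either orientation. Of these, 96.7% were open in WT, at a median of 64 tags, against 67.5% of the 18486 other genes, at 50 tags. The genes with such a neighbour were also richer in CGs, and at a CpG ratio (defined below) of at least 0.8 the shares open were 98.9% and 98.1%, with medians of 65 and 59 tags.

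The tallest WT promoter peaks began with predicted genes, and then with genes of varied function. Gm10800 had 180 tags in WT and 176 in mutant, which is the limit in both lists, and 286 in het. Gm10801 had 172 tags in WT, 168 in mutant and 185 in het, and the shared peak of Gm10717 and Gm10718 had 155, 149 and 78. These predicted genes may have near-identical copies elsewhere, so their tags are uncertain. Outside them, the shared promoter of Hjurp and Trpm8, a cold-sensing ion channel, was the tallest, at 145 tags in WT, 141 in mutant and 241 in het. Then came Ripk2, a kinase of innate immune signalling, at 128 tags in WT and 130 in mutant, Ifrd1 at 126 and 127, and Desi2 at 125 and 118. Arl13b, a small GTPase of the primary cilium, had 121 tags in WT, 120 in mutant and 225 in het. The predicted genes near the limit cannot show a difference upward.

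Wide promoter peaks were found at other genes than the tallest ones. The widest WT promoter peak, at Spaca6, spanned 2632 bp, and those at Nrg3, a neuregulin ligand, at Cdk13 and at Mdga2 spanned 2572, 2371 and 2363 bp. The widest promoter peak of Trio, a guanine nucleotide exchange factor of axon guidance, spanned 2227 bp in WT, 2264 bp in het and 2250 bp in mutant. Width was less stable than height for some of these genes. At Nrg3 the widest peak was 1802 bp in mutant and 2632 bp in het, while its tallest peak had 52 tags in WT and 47 in mutant. At Erbb4, a neuregulin receptor, it was 3189 bp in het but 1197 bp in WT and 1193 bp in mutant. Peaks closer than a set gap are joined by the caller, and the smallest gap left between neighbouring peaks was 108 bp in WT and het and 77 bp in mutant.

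Of the 20807 genes, 14729 (70.8%) were open in WT, 14268 (68.6%) in het and 14901 (71.6%) in mutant. Most genes shared their state, with 14026 genes (67.4%) open in the 3 lists and 5551 (26.7%) closed in the 3. Genes open in the 3 lists had a median tallest promoter peak of 54 tags in WT, 74 in het and 56 in mutant. Genes open in 1 or 2 lists were near the detection limit, with medians of 10 to 15 tags, and comprised 431 open in WT and mutant, 47 in WT and het, 112 in het and mutant, 225 in WT alone, 83 in het alone and 332 in mutant alone. Of the closed genes, 1294 (23.3%) were olfactory or vomeronasal receptors and 1068 (19.2%) had Gm or Rik symbols, which mark predicted or little-studied genes. The median length of closed genes was 7.11 kb, against 25.6 kb for genes open in the 3 lists. Chromosome 7 had the lowest share of open genes in WT, at 55.9%, and chromosome 12 the highest, at 82.3%. With the olfactory and vomeronasal receptors left out the share over all autosomes was 75.5%, and chromosome 14 was then the lowest at 62.1%.

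Genes that define granule progenitors had open promoters. Of 27 transcription factors of the granule lineage, 26 were open in WT, 26 in het and 27 in mutant, against 70.8%, 68.6% and 71.6% of all genes. Open promoters were not particular to this list. Marker lists of other cell types, given below, ran from 3 of 9 microglia markers to 7 of 7 endothelial markers open in WT. Atoh1 had a promoter peak of 59 tags in WT, 88 in het and 70 in mutant, Pax6 52, 82 and 63, Zic1 83, 116 and 88, and Neurod1, which drives neuronal differentiation, 84, 132 and 80. Etv1, a factor of maturing granule neurons, had the tallest of the list in each of the 3 lists, at 101, 148 and 99 tags. The gene closed in WT and het was Zic2, where a WT peak of 96 tags covered the TSS but had its summit beyond 1 kb, so that the summit rule and not the absence of a peak set this call. Heights in the lineage list ranged from 36 to 101 tags in WT and from 29 to 99 in mutant, with the lowest at Barhl1 in both.

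The Sonic hedgehog pathway, which drives GNP proliferation in response to ligand from Purkinje cells, was open apart from its ligand. Of 16 genes 15 were open in each list, and Shh itself was closed in the 3. The receptor Ptch1 had 64 tags in WT, 96 in het and 72 in mutant. For the transducer Smo these were 54, 60 and 54. Of the transcription factors, Gli1 had 44, 62 and 46 tags in the same order and Gli2 61, 96 and 62. The targets Mycn and Ccnd1, which push cells through the cell cycle, had 65, 103 and 72 tags and 41, 50 and 37 tags. Replication and mitosis genes were open in each list for 23 of 23, from 37 to 113 tags in WT. Mcm3, a helicase subunit, had the tallest of them at 113 tags in WT and 106 in mutant, followed in WT by Mcm4 (98 and 96) and the clamp gene Pcna (88 and 96).

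Genes of later granule neuron stages were open as well, with lower peaks at some receptor genes. Of 21 maturation genes, 21 were open in WT, 19 in het and 20 in mutant, against 70.8%, 68.6% and 71.6% of all genes. Syt1, a calcium sensor of synaptic vesicles, had 108 tags in WT, 187 in het and 110 in mutant, while the netrin receptor gene Unc5c had 109, 169 and 113. Gabra6, the GABA receptor subunit of mature granule neurons, had 18, 13 and 13 tags, and the glutamate receptor genes Grin2c and Grm4 had 19, 19 and 18 tags and 18, 19 and 14 tags. Slc17a7, the vesicular glutamate transporter VGLUT1, had 22 tags in WT and no promoter peak in het or mutant. Kcnd2, a potassium channel gene, had 42 tags in WT and 41 in mutant, and in het 1 wide peak whose summit lay beyond 1 kb.

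Markers of other cerebellar cell types were open in shares on both sides of the 70.8% of all genes in WT. In these lists of 7 to 12 genes, the WT Wilson 95% interval included that share in each but the microglia markers. Of 12 Purkinje cell markers 11 were open in WT, with Pcp2 closed in the 3 lists. Of 11 astrocyte and Bergmann glia markers 9 were open in WT and 10 in het and in mutant, among them Sox9 at 73, 118 and 69 tags and Gfap at 25, 28 and 26. Of 10 inhibitory interneuron markers 8 were open in WT and mutant, at a WT median of 28.5 tags, and the inhibitory transporters Slc32a1 and Slc6a5 were closed. Of 8 oligodendrocyte markers 5 were open in WT, and the myelin genes Mag and Mog were closed. Of 7 endothelial markers 7 were open, at a WT median of 22 tags. Of 9 microglia markers 3 were open in WT and 2 in het and mutant, and Cx3cr1, Aif1, C1qa, C1qb, Spi1 and Tyrobp were closed in the 3. In bulk samples, fewer cells of a type and less accessible DNA per cell cannot be told apart, and the part of other cell types in these peaks was not tested.

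Housekeeping and tissue-restricted families lay at opposite ends. Complex I subunits, of the first enzyme of the respiratory chain, were open in 34 of 34 cases in each list, ribosomal protein genes in 76 of 79 and proteasome subunit genes in 37 of 38. The 3 closed ribosomal genes were Rpl10l, Rpl39l and Rpl3l, paralogs used in testis or muscle, and the closed proteasome gene was Psma8, a subunit of the testis. Rpl3 had 46 tags in WT, 64 in het and 56 in mutant, while Rpl3l, whose upstream sequence holds a single CG, had no promoter peak. Zinc finger genes were open in WT for 316 of 358, solute carriers for 272 of 348, potassium channels for 77 of 91 and collagens for 34 of 42, the collagens with a median of 22 tags against 58 for zinc finger genes.

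At the other end, 70 of 1087 olfactory receptor genes (6.44%) were open in WT, 51 in het and 73 in mutant. Vomeronasal receptors were open in 8 of 326 in WT, beta-defensins in 1 of 42 and bitter taste receptors in 0 of 35, a share that is compatible with up to 9.89% (Wilson 95% upper limit). Between these ends, cytochrome P450 genes were open in 34 of 94 in WT, keratins in 13 of 53 and keratin-associated proteins in 13 of 57. Of 20 genes typical of other organs, 3 were open in WT, 4 in het and 5 in mutant. Alb, Apoa1 and the insulin genes had no WT promoter peak. The exceptions included tall peaks. Dazl, a germ cell RNA-binding protein, had 82, 115 and 74 tags in WT, het and mutant, the fetal liver protein gene Afp 65, 93 and 60, and the vomeronasal receptor Vmn1r4 100, 146 and 101. Hox genes, which pattern the body behind the cerebellum, were open in 21 of 39 in WT, 16 in het and 19 in mutant, with peaks of at most 26 tags. Clustered protocadherins, of which single neurons use a few, were open in 31 of 57 in WT and 32 in mutant at a median of 12 tags, and in 16 in het.

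**Figure D2:**
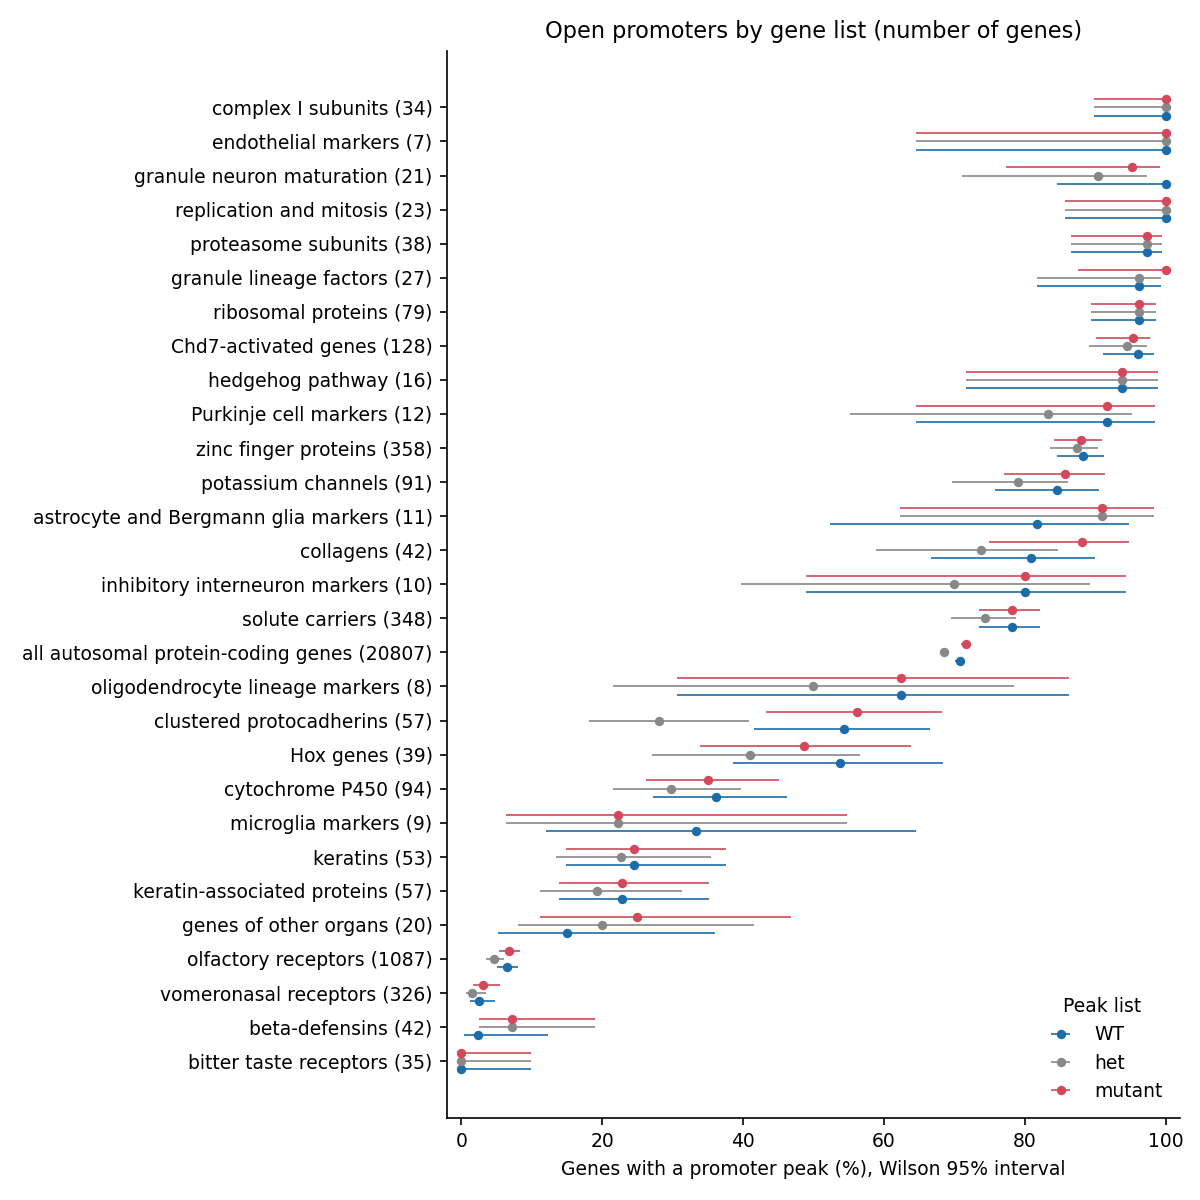
Percentage of genes with a promoter peak in each gene list for the WT, het and mutant lists, with Wilson 95% intervals that cover counting over genes alone; the number of genes is in brackets. Ribosomal proteins sit at 96.2% and olfactory receptors at 4.69 to 6.72%, against 68.6 to 71.6% of all autosomal protein-coding genes.

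CG content at the gene 5′ end separated open from closed genes, a property that the promoter rule did not use. It was read over 300 bp at the 5′ end of each gene, from 250 bp upstream to 50 bp downstream, as the CpG ratio, the observed number of CGs over the number expected from the C and G content. The median CpG ratio was 0.707 in genes open in WT (18 CGs) and 0.156 in closed ones (2 CGs), and the median GC content was 59.3% and 46.0%. Of genes with a ratio under 0.2, 25.2% of 4928 were open in WT, 22.4% in het and 27.1% in mutant. That share was 53.1% from 0.2 to 0.4, 83.8% from 0.4 to 0.6, 95.7% from 0.6 to 0.8, 98.0% from 0.8 to 1.0 and 99.0% above. Open promoters also differed in height along this scale, from a median of 28 tags and 444 bp under 0.2 to 61 tags and 914 bp from 0.8 to 1.0. Of the 4928 genes under 0.2, 595 (12.1%) had a WT promoter peak of at least 30 tags. State and height were read at any TSS of a gene, and CGs at its 5′ end alone. A peak may thus lie at another start than the one whose CGs were counted.

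**Figure D3:**
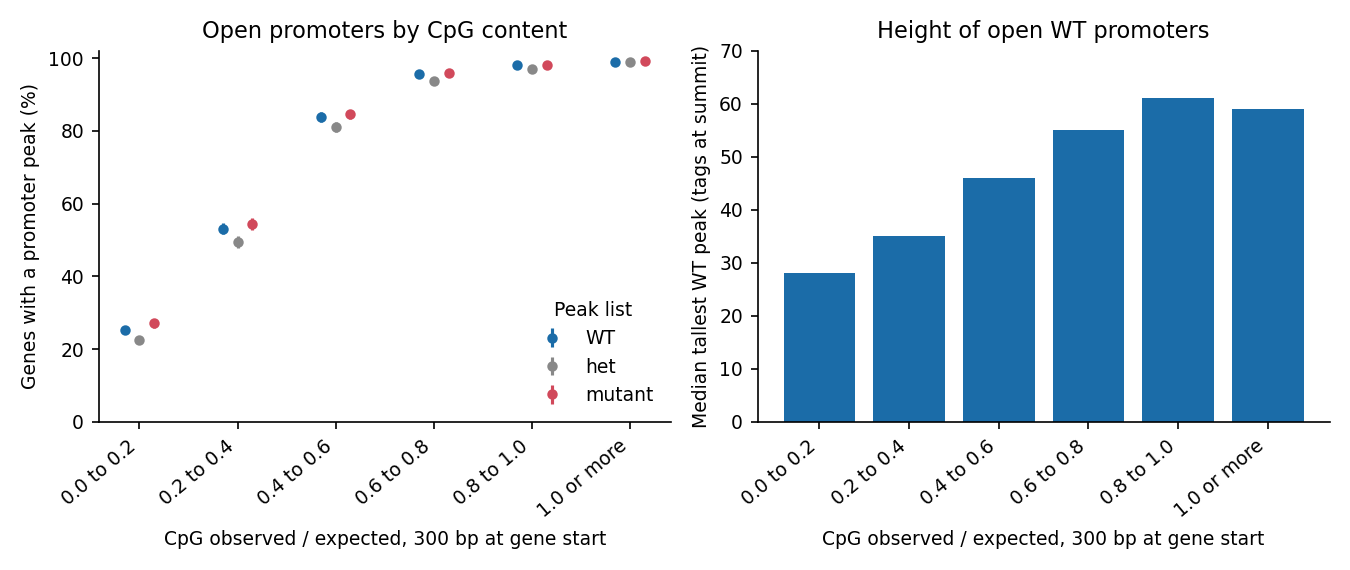
Left, percentage of genes with a promoter peak by CpG ratio of the 300 bp at the gene start, for the 3 lists, with Wilson 95% intervals mostly smaller than the points. Right, median height of the tallest WT promoter peak of open genes; both rise from the lowest bin (25.2% open and 28 tags in WT) to the bin from 0.8 to 1.0 (98.0% and 61 tags).

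Short sequence motifs were counted over the same 300 bp on both strands, as matches of letters and not as sites. GGGCGG, the GC box bound by Sp1-type factors, was found in 57.5% of genes open in WT and 10.4% of closed ones (43.7% of all 20807). TATAAA, the core of the TATA box, was found in 7.93% of open and 24.4% of closed genes (12.7% of all). CCAAT, bound by NF-Y, did not separate them, at 37.8% and 40.4% (38.6% of all), yet open genes with it had a median of 59 tags against 49 without. CCGGAAGT, an ETS-type motif, was found in 6.47% and 0.757% (4.80% of all), GCATGCGC, an NRF1-type motif, in 4.61% and 0.642% (3.45% of all), and TGACGTCA, the cyclic AMP response element, in 3.14% and 0.691% (2.43% of all). TCTCGCGA was the rarest, in 281 genes (1.35% of all), of which 97.9% were open, at a median of 66 tags against 52 without it. Of the E-boxes, CACGTG was more frequent in open genes (9.54% against 3.65%, 7.82% of all), CAGCTG alike (15.4% and 15.5%, 15.5% of all) and CAGATG more frequent in closed genes (13.0% against 21.4%, 15.4% of all). AAGATGGC, a YY1-type motif, was found in 3.65% and 1.20% (2.93% of all). Motifs that contain CG follow the CpG ratio in part: within genes of a ratio of at least 0.8, the GC box was found in 76.4% of 5352 open and 61.1% of 95 closed genes. There CACGTG (12.4% and 12.6%), AAGATGGC (5.06% and 5.26%) and CAGATG (7.85% and 7.37%) no longer separated open from closed genes, and CAGCTG was found in 11.4% and 6.32%. TCTCGCGA was found there in 3.91% and 3.16%, and open genes with it had a median of 66 tags against 60 without. The shares were 9.59% and 3.16% for CCGGAAGT, 7.79% and 3.16% for GCATGCGC, and 4.99% and 2.11% for TGACGTCA. The closed shares rest on few matches among 95 genes, without intervals, so they do not show that these motifs separate the 2 groups. Of the 71 genes of this ratio closed in the 3 lists, 15 had a second copy of the window in the reference sequence, as described below.

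Few CG-rich promoters were closed. Of 5447 genes with a CpG ratio of at least 0.8, 71 (1.30%, CI 1.03 to 1.64%) had no promoter peak in any list, and 6 of these were Hox genes. Of the 71, 23 lay in stretches of at least 100 kb without a peak in any list, and several of those stretches hold genes that most cells use. No peak lay between 4013099 and 4261153 on chromosome 19, where Ppp1ca, the catalytic subunit of protein phosphatase 1, and Coro1b, Pold4 and Rad9a lie. Likewise none lay between 72271336 and 72454333 on chromosome 6, with Mat2a, which makes S-adenosylmethionine, or between 87987925 and 88326757 on chromosome 11, with the splicing factor gene Srsf1. On chromosome 16 the stretch from 18225125 to 18498154 holds Ranbp1, Dgcr8 and Trmt2a.

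The windows of the genes named in these stretches have a second copy in the reference sequence. Fix patches are corrected sequences that releases of the assembly add beside the chromosome, so that a read from such a locus matches both. The 300 bp window was found unbroken on a fix patch of the GRCm38.p6 release for 233 genes, and 226 of them lay on 45 patches of the gene's own chromosome. Among genes with a CpG ratio of at least 0.6 and no second copy, 97.4% of 9169 were open in WT, against 76.4% of 106 genes with a copy on a fix patch. The closed ones lay on a part of the patches. On the 10 patches with the lowest record numbers, which include those of the 4 stretches above, 67 of 71 genes were closed in WT, 68 in het and 68 in mutant. On the other 35 patches 121 of 155 genes were open in WT (78.1%), and 79 of 81 with a CpG ratio of at least 0.6. This split of the patches was made after the values were seen. The study's methods give bowtie alignment to mm10 with only uniquely mapped reads kept, while the headers of the WT and mutant lists name STAR alignments. Whether that mm10 sequence held the patches is not given in the sources used here, and their part in the closed calls was not tested. The het list held 71 peaks on 22 sequences outside the assembled chromosomes, and the WT and mutant lists held 0.

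**Figure D4:**
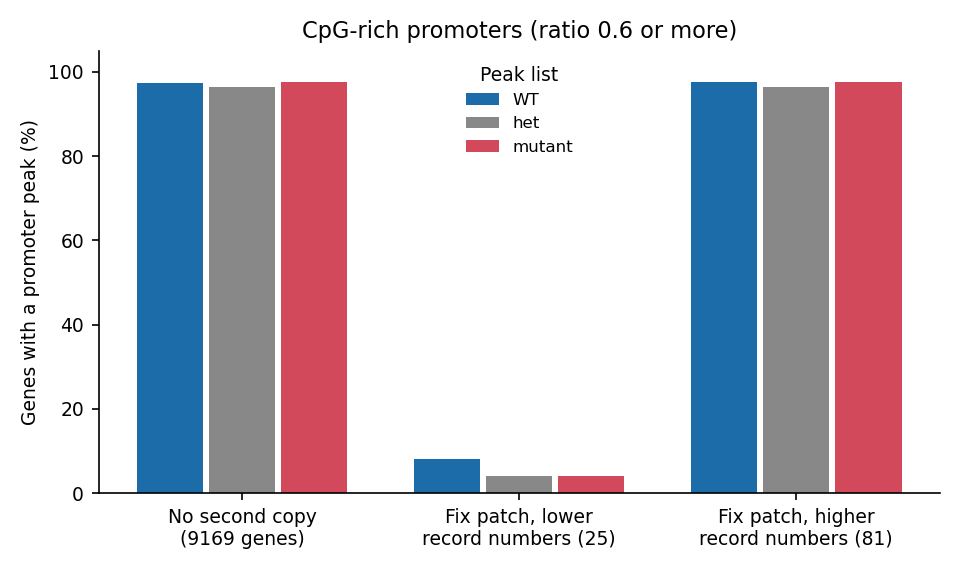
Percentage of genes with a promoter peak among genes with a CpG ratio of at least 0.6, in the WT, het and mutant lists, for genes without a second copy of the window and genes with a copy on fix patches of lower or higher record numbers. In WT 2 of 25 genes on the patches with lower record numbers were open, against 79 of 81 on the others.

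The genotypes were compared first by presence. Chd7 itself had a promoter peak of 57 tags in WT, 69 in het and 52 in mutant, which does not check the deletion, since accessibility of the promoter says nothing of the protein. Of the WT promoter peaks, 1809 (8.57%, CI 8.20 to 8.95%) overlapped no mutant peak, against 25.3% of the other WT peaks and 23.0% of all autosomal WT peaks. In the other direction 2952 mutant promoter peaks (12.7%) overlapped no WT peak, against 33.6% of other peaks and 30.8% of all. These shares depend on the rule, at 19.4% and 26.5% under a reciprocal overlap of 50%, 5.11% and 7.96% with a partner allowed within 300 bp, and 5.02% of WT peaks at a -log10 q of at least 5. The mutant list held more autosomal peaks (170362 against 149637) and was called with a tag size of 76 bp against 107 bp in WT. The larger share without a partner in mutant cannot be told apart from these differences. Of WT promoter peaks 15.3% had no het peak and of mutant ones 18.3%, against 37.0% and 41.4% of all peaks. Of het promoter peaks 4.33% had no WT peak and 3.32% no mutant peak, against 13.3% and 10.7%. Promoter peaks thus had a partner more often than the lists as a whole in each of the 6 comparisons, and they were also taller.

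Promoter peaks without a partner were low and narrow, and lay farther from the TSS. The 1809 WT peaks had a median of 13 tags and 123 bp and the 2952 mutant peaks 13 tags and 125 bp, against 40 tags and 621 bp and 40 tags and 578 bp in peaks with a partner. Of their summits 36.8% and 39.1% lay within 250 bp of a TSS, against 71.4% and 69.9%. The tallest had 50 tags in either list. At a height of at least 30 tags, 28 of 12243 WT promoter peaks (0.229%) had no mutant peak and 63 of 12956 mutant ones (0.486%) no WT peak. Other peaks of at least 30 tags gave 0.262% and 0.626%, though heights above that floor were not matched and ran lower in the other peaks.

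Promoters held more separate peaks in mutant. Of the 14729 open genes in WT 1771 had 3 or more promoter peaks, against 15.4% of open genes in mutant, and 6.98% of WT promoter peaks were overlapped by 2 or more mutant peaks, against 2.61% in the reverse direction. This moved with the joining gap given above. With mutant peaks no more than 107 bp apart joined, as in the other lists, the median width in mutant was 544 bp in place of 473 bp, 12.8% of open genes had 3 or more peaks, and the overlap counts were 3.34% and 3.98%. That setting was chosen after the data were seen.

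Genes with a promoter peak in WT or mutant and none nearby in the other had low peaks. In WT, 248 genes had a promoter peak with no mutant peak within 300 bp, at a median of 10 tags, and 39 of them had a het peak. The tallest were Slc17a7 and Dll4, a Notch ligand, at 22 tags, Arg1, which cleaves arginine, and Grik5, a kainate receptor subunit, at 21, and Gon4l at 20. In mutant, 401 genes had a peak with no WT peak within 300 bp, at a median of 11 tags, and 94 had a het peak. The tallest were Jak3, a cytokine receptor kinase, Ttc23 and Fezf2, a zinc finger factor of forebrain neurons, at 24 tags, and Gm5414 and Fam180a at 23. Of these, Jak3 had 30 tags and Fezf2 19 tags in het.

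Heights were then compared over regions made by joining WT and mutant peaks within 300 bp of each other. Of 20085 regions with a promoter peak, 17388 (86.6%) held peaks of both lists, 1000 WT alone and 1697 mutant alone. The log2 ratio of mutant to WT height, relative to each list's total tags, was centred on its median over all shared autosomal regions, which was 0.07. Over 11981 promoter regions with a mean of at least 30 tags the median ratio was -0.02, and 90% of regions lay between -0.29 and 0.26. For 21592 other regions the median was -0.04 and that range -0.50 to 0.42. Without the centring the promoter median was 0.05, so its sign depends on the scaling.

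A difference of more than 1.5-fold was rare at promoters. It was found in 39 promoter regions (0.326%, CI 0.238 to 0.445%) that were lower in mutant and 28 (0.234%) that were higher, against 656 (3.04%) and 354 (1.64%) of the other regions, and 2.07% and 1.14% of all. Without the centring the counts at promoters were 18 lower and 56 higher, with fold enrichment 13 and 12, and with no height minimum 244 and 304 of 17388 regions. Since promoters were taller, the comparison was repeated at matched height. From 30 to 50 tags, 0.789% of 4437 promoter regions were lower and 0.631% higher, against 3.68% and 2.15% of 16218 other regions. From 50 to 80 tags, 4 of 5602 promoter regions were lower and 0 higher, against 59 and 5 of 5025. From 80 to 120 tags none of 1927 promoter regions passed in either direction, which is compatible with up to 0.199%, and 0 and 1 of 339 other regions did. The spread (SD) of the log2 ratio from 30 to 50 tags was 0.22 at promoters and 0.30 elsewhere, while counting of independent tags alone would give 0.32 and 0.34. From 80 to 120 tags it was 0.10 and 0.13, while counting alone would give 0.22 in both. Intervals of single ratios given below, which assume independent tags, are thus wide relative to the spread seen. The duplicate filter caps heights at 180 tags in WT and 176 in mutant, and how far it narrowed ratios of tall regions was not tested. The lack of promoter regions past 1.5-fold from 80 to 120 tags therefore does not show equal accessibility.

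**Figure D5:**
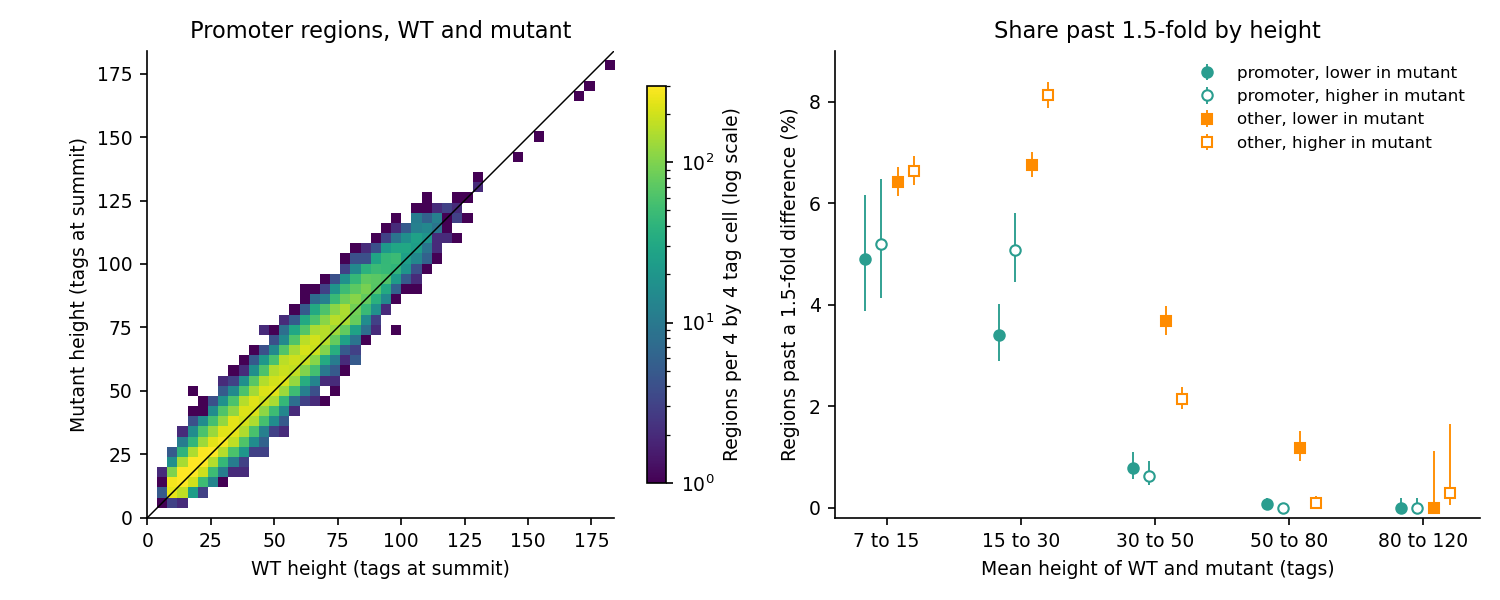
Left, tallest WT against mutant height (tags at the summit) of promoter regions with peaks in both lists, as the number of regions per cell of 4 by 4 tags on a log colour scale, with the line of equal tags. Right, percentage of promoter and other regions that were more than 1.5-fold lower or higher in mutant, by mean height, with Wilson 95% intervals; from 30 to 50 tags the promoter shares were 0.789% and 0.631%, against 3.68% and 2.15% elsewhere.

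By gene, using the region of the tallest promoter peak, 26 of 11793 genes were more than 1.5-fold lower in mutant (0.22%) and 17 higher (0.144%), from 10583 distinct regions. The lowest ratios were at Adcyap1, the neuropeptide PACAP, with 39 tags in WT and 23 in mutant (0.554 of the WT height relative to total tags, 95% CI of counting 0.316 to 0.951), and at Cd163, a scavenger receptor of macrophages, with 44 and 27 (0.576, CI 0.343 to 0.952). Next were Gm2897 with 47 and 29 tags, Krtap15, a hair keratin-associated protein, with 46 and 29, and Arhgap32, a GTPase-activating protein, with 52 and 33. Ezr, which links membrane and actin, had 45 tags in WT, 40 in het and 29 in mutant at the CG-rich promoter shown above (0.605, CI 0.366 to 0.987). Bcl2l15, Pou5f2, Igf2bp3 and Ntsr1 had 45, 36, 46 and 40 tags in WT and 30, 24, 31 and 27 in mutant, with intervals that reached 1. The 3 genes with a mean of at least 50 tags were Dmrta1 (69 and 47 tags), the predicted gene Gm20741 (65 and 45) and the histone gene Hist2h2aa2 (64 and 44), named after their values were seen.

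The highest ratios were at Rbms3, an RNA-binding protein gene, with 17 tags in WT and 48 in mutant in 1 region (2.65, CI 1.498 to 4.92), while its tallest WT promoter peak, at another TSS, had 30 tags, and at Cyp26b1, which degrades retinoic acid, with 19 and 41 (2.03, CI 1.15 to 3.70). Trappc3l had 34 and 59 tags (1.63, CI 1.05 to 2.56) and Psmc1, an ATPase of the proteasome, 32 and 54 (1.59, CI 1.01 to 2.54). For Ehbp1l1, Fsbp, Znhit2, Tac1, Pld4 and Mrpl35 the interval included 1, with 22, 22, 25, 24, 23 and 31 tags in WT and 40, 39, 43, 41, 39 and 52 in mutant. Genes at the ends of 11793 ratios were picked for their size. Several with under 30 tags in WT reached the mean of 30 tags through the mutant list alone. Likewise several lower genes with under 30 tags in mutant, among them Adcyap1, Cd163 and Ezr, reached it through the WT list alone. The intervals at both ends thus describe counting error and support no difference. With fold enrichment over the local background in place of tags, 11 of these 20 genes were within 1.5-fold, among them Cd163, Trappc3l and Psmc1, and 9 stayed past it, among them Adcyap1, Ezr, Rbms3 and Cyp26b1.

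Ratios of single peaks in place of regions would name other genes, and the use of regions here was chosen after the data were seen. Cadps had a tallest promoter peak of 66 tags in WT and 23 in mutant, but its region had 66 and 77 tags, and Tbxas1 had 56 and 20 tags in single peaks against 56 and 56 in the region. The same held for Fam81b, with 63 and 28 tags against 63 and 63, and in the other direction for Armc5, with 22 and 62 against 59 and 62. In these genes a summit lay inside 1 kb of a TSS in 1 list and outside it in the other.

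In het, heights were read as percentiles within the list, whose medians over all open genes were 92.5 in WT, 89.8 in het and 93.5 in mutant. Of the 26 genes lower in mutant 25 had a het promoter peak, with a median height percentile of 89.0 in WT, 79.3 in het and 77.9 in mutant, with het between the others in 11. For the 17 genes higher in mutant the medians were 71.8, 69.6 and 87.9, with het between in 4. WT and mutant values chose these genes, so their order in WT and mutant is a description.

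Gene lists were compared between WT and mutant over their members. Of genes with a mean of at least 30 tags, none of 27 granule lineage factors, 15 hedgehog pathway genes, 23 replication and mitosis genes, 17 maturation genes, 75 ribosomal protein genes and 34 complex I genes passed 1.5-fold in either direction, against 0.22% lower and 0.144% higher of all 11793 genes, a share at which lists of this size would hold almost none. The list medians were -0.03, -0.03, -0.02, -0.04, -0.05 and -0.05 on the centred log2 scale, against -0.02 over all 11793 genes, and each of them was above 0 without the centring. Within the lineage list the ratio ran from -0.40 at Barhl1 (36 tags in WT, 29 in mutant) to 0.19 at Pax6 (52 and 63). The ratio of 0.39 at Mcm2 (53 and 74 tags) was the highest among replication genes. Of the other lists, 1 collagen (Col16a1, 48 tags in WT) and 1 keratin-associated protein gene (Krtap15) were past 1.5-fold lower, and 1 cytochrome P450 gene (Cyp26b1) and 1 proteasome gene (Psmc1) higher. Lists with few members of that height had medians farther from 0, at 0.22 for 3 inhibitory interneuron markers, -0.22 for 2 genes of other organs and -0.21 for 5 keratin-associated protein genes, with the same signs without the centring. The 11 olfactory receptor genes of that height, out of 1087, had a median of -0.26, the farthest from 0 of the lists compared. Of the 11, 10 were below 0, against 56.8% of all 11793 genes, and 0 passed 1.5-fold in either direction. The list was singled out for its median, and this count uses the same ratios, so it is no separate support for a difference. Their median was -0.18 without the centring and -0.15 with fold enrichment. Olfr419, with 52 tags in WT and 37 in mutant, had the lowest ratio of them (-0.58).

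The study gave a list of genes with lower RNA in Chd7 mutant GNPs, here called Chd7-activated genes. Of the genes on that list that were matched to the annotation, promoters were open in 123 of 128 cases in WT, 121 in het and 122 in mutant, at a WT median of 66 tags against 52 for all open genes. Since RNA of the same mouse model chose these genes, they are not independent of genotype. Of 111 with a mean of at least 30 tags, 1 was more than 1.5-fold lower in mutant (Dmrta1, 69 and 47 tags) and 0 higher, against 0.22% and 0.144% of all 11793 genes. The ratio was below 0 for 74 of them (66.7%), against 56.8% of all 11793 genes, with a median of -0.06 against -0.02, and without the centring the medians were 0.01 and 0.05. With fold enrichment they were both -0.03. Tunar had 37 tags in WT, 39 in het and 27 in mutant (-0.54). Members closed in WT included Pou2af1, Rnf133, Rnf148 and Slc6a15.

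The CpG ratio did not sort the genotype differences. The median centred ratio of mutant to WT height lay between -0.02 and -0.03 in each of the 6 bins of CpG ratio, and its spread narrowed from 0.20 under 0.2 to 0.15 at 1.0 and above. Among the motif groups the median ratio ran from -0.03 (CAGATG) to -0.02 (CAGCTG). Covered length per promoter region was also alike, with a median log2 ratio of mutant to WT length of 0.00 and quartiles of -0.11 and 0.11.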

How the data were processed

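ATAC-seq was performed by the authors on GNPs of 3 WT, 2 het and 3 mutant libraries. Per the labels and the file headers, reads were processed with tools that include Trim Galore 0.4.1, STAR 2.5.0b, Bowtie 1.0.0 and Picard 1.139, and the authors called narrow peaks with MACS2 2.1.0.20150731 on pooled libraries (q-value cutoff of 0.05, no control, 1 tag per position kept, regional background of 10000 bp). The WT and mutant headers name a folder of STAR alignments, with fragment lengths of 90 and 88 bp and tag sizes of 107 and 76 bp. The study's methods give Bowtie to mm10 with uniquely mapped reads alone. The het header names a bowtie folder, with an extension of 200 bp and a tag size of 107 bp. The deposited pileup is a signal in whole tags, the deposited fold enrichment is a ratio to local background, and the deposited q-values are given as -log10; the lists name neither library nor gene. The authors also deposited -log10 p-values, which were not used. There were 0 columns without a group.

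Promoters came from GENCODE M21 on GRCm38, whose coordinates match mm10. Peaks of 2 lists counted as shared at an overlap of at least 1 bp. Heights were compared over regions joined within 300 bp, with a mean of at least 30 tags, as log2 ratios centred on the median of all shared autosomal regions. No test across replicates was possible. Intervals of shares are Wilson 95% intervals, and those of ratios exact conditional binomial ones. Steps were tested on simulated data.

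Genes named were the 10 tallest and widest per list, the 10 tallest without a partner, the 10 most different per direction, and members of the gene lists. Some members are not reported here. Members and lists were chosen with earlier results of these data known. Sequence was read from GRCm38.p6, where second copies of promoter windows were sought after the closed CG-rich promoters had been seen. Calculations used python 3.11.15, numpy 2.4.6, pandas 2.3.3, scipy 1.17.1, pysam and matplotlib 3.10.9.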

Additional observations from a re-analysis of the deposited data

How the results depend on the processing

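No paired analysis was possible because each list pools the libraries of its group, and leaving out a library could not be done for the same reason. The values have no replicate error, and the list heights are limited by the duplicate filter. Promoter peaks without a partner in another list had medians of 13 to 15 tags, though the tallest WT one without a het peak had 94. Alternatives that joined mutant peaks across a wider gap or counted any part of a peak were chosen after the data were seen. The causes of the shifts below were not tested, apart from those that follow from counting fewer peaks or TSSs.

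Values are given in the order WT, het, mutant for the share of peaks at promoters, the share of open genes and the median width, then for WT peaks without a mutant peak and the reverse. With a 500 bp window they were 11.6%, 14.6% and 11.0%, 67.7%, 65.4% and 68.5%, 655, 807 and 598 bp, then 6.63% and 9.90%. With TSSs of protein-coding transcripts alone they were 12.3%, 15.02% and 11.8%, 69.1%, 67.0% and 70.1%, 631, 806 and 558 bp, then 7.25% and 10.8%. With the gene 5′ end alone they were 9.85%, 12.2% and 9.34%, 65.2%, 63.0% and 66.2%, 697, 850 and 639 bp, then 6.24% and 8.92%. With peaks of a -log10 q of at least 5 they were 18.4%, 20% and 17.3%, 66.6%, 65.96% and 67.9%, 695, 811 and 635 bp, then 5.02% and 10.002%. Under a reciprocal overlap of 50%, 19.4% of WT and 26.5% of mutant promoter peaks had no partner, and with a partner allowed within 300 bp 5.11% and 7.96%. With mutant peaks joined across 107 bp the mutant share was 13.2%, the width 544 bp and the share without a WT peak 12.2%. Counting any part of a peak, 71.4% of genes were open in WT and 69.4% in het. In each of these settings but the last, for which it was not computed, mutant peaks without a WT partner were the larger share. Peaks away from promoters had the same order in the main setting (33.6% in mutant, 25.3% in WT). The order cannot be told apart from the larger number of mutant peaks and the other tag size of that list.

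For heights, the median log2 ratio was 0.049 without centring, which reversed its sign, and -0.0272 with fold enrichment and -0.0162 with no height minimum. The shares more than 1.5-fold lower and higher in mutant were 0.109% and 0.100% with fold enrichment, 0.150% and 0.467% without centring, 1.40% and 1.75% with no height minimum, and 0.214% and 0.133% at gene 5′ ends. In each of these settings both shares were smaller at promoters than in other regions. Joining only overlapping peaks or a 500 bp window moved these shares by less than 1.5 times. Of the 20 genes named by height ratio, 0 changed direction under the 4 height settings. The small centring shifts all ratios alike and the height minimum does not enter them, so these settings could not reverse genes picked for large ratios. Joining only overlapping peaks left their ratios almost unchanged, and with fold enrichment 11 of the 20 were within 1.5-fold.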
